A study of Canis lupus familiaris with 12 samples.

Results

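The genes described here, 7 in number, belong to cell survival and cell death and were followed in dog kidney epithelial cells that carried the transcription factor Snail, Slug or E47: BCL2L1, MCL1, BCL2A1, CYCS, TNFSF10, TNFRSF1B and DAPK1. They were found by the gene symbol of their probes, and made up 7 of the 4325 genes, 10 of the 4973 clones and 17 of the 8047 probes with 1 gene symbol on the array. The genes were chosen by their measured ratios against the control in these same transfectants, so the values below are a description. The standard errors and calls of the fit over all genes that are given for them further on are part of that description and support nothing. The cells were MDCK, an established line with epithelial character, transfected with Snail, with Slug or with E47, and the control was MDCK-CMV, the same line labelled only with CMV. Each transfectant had 2 numbered samples, each hybridised against the control on a pair of 2-colour arrays with exchanged dyes, which gave 4 arrays per transfectant and 12 in all. The labels do not say whether a transfectant was 1 clone, what the level of the introduced factor was, or whether samples 1 and 2 came from separate cultures.

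BCL2 family proteins decide whether the outer membrane of mitochondria stays closed. The survival members BCL2L1 (BCL-XL), MCL1 and BCL2A1 hold back the pore-forming members, and cytochrome c, the product of CYCS, activates caspases once it leaves the mitochondrion. Death can also start at the cell surface, where ligands of the TNF family such as TNFSF10 (TRAIL) bind receptors on neighbouring cells. TNFRSF1B is the second TNF receptor, which has no death domain and signals through TRAF proteins, and DAPK1 is a calmodulin-regulated kinase known for promoting cell death. All 3 introduced factors are known repressors of CDH1, which encodes the adhesion molecule E-cadherin, and Snail family factors are known for making epithelial cells resist death signals.

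The values are log2 ratios of a transfectant over the control, averaged over the spots of a clone and then over the clones of a gene. The labels do not name the channel on top of the deposited ratio, and arrays of the same labelled dye orientation correlated below -0.3 in 7 of 30 pairs, down to -0.61, so the direction is not settled. Here 5 arrays were turned and 7 were kept so that CDH1 lay below the control on every array. Every "higher" and "lower" against the control below is therefore assumed, and with the sign of a transfectant turned the 2 words exchange for all of its genes. On which side of the control a gene lay relative to CDH1 or to another gene on the same array does not depend on that choice. The cDNA probes are annotated to human genes and were read with dog RNA, and all 7 symbols have a dog gene of the same name. A ratio gives no level, so the presence of cell type markers could not be checked.

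The arrays held values for 10654 to 12982 of 13056 probes. The standard deviation of an array's log2 ratios ran from 0.64 to 0.695 on the Slug arrays, and the lowest on any array was 0.446, so the Slug ratios were the widest. CDH1 had a mean log2 ratio of -2.07 ± 0.06 in Snail, -2.46 ± 0.02 in Slug and -2.07 ± 0.40 in E47 (SD, n = 2 samples each). SNAI1, the gene of Snail, had 1.70 ± 0.95 in Snail, and its samples 1 and 2 differed, at 1.04 and 2.37. TCF3, the gene of E47, had 0.71 ± 0.15 in E47 and 1.11 ± 0.01 in Slug, and no probe carried the symbol of the Slug gene, SNAI2.

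**Figure D1:**
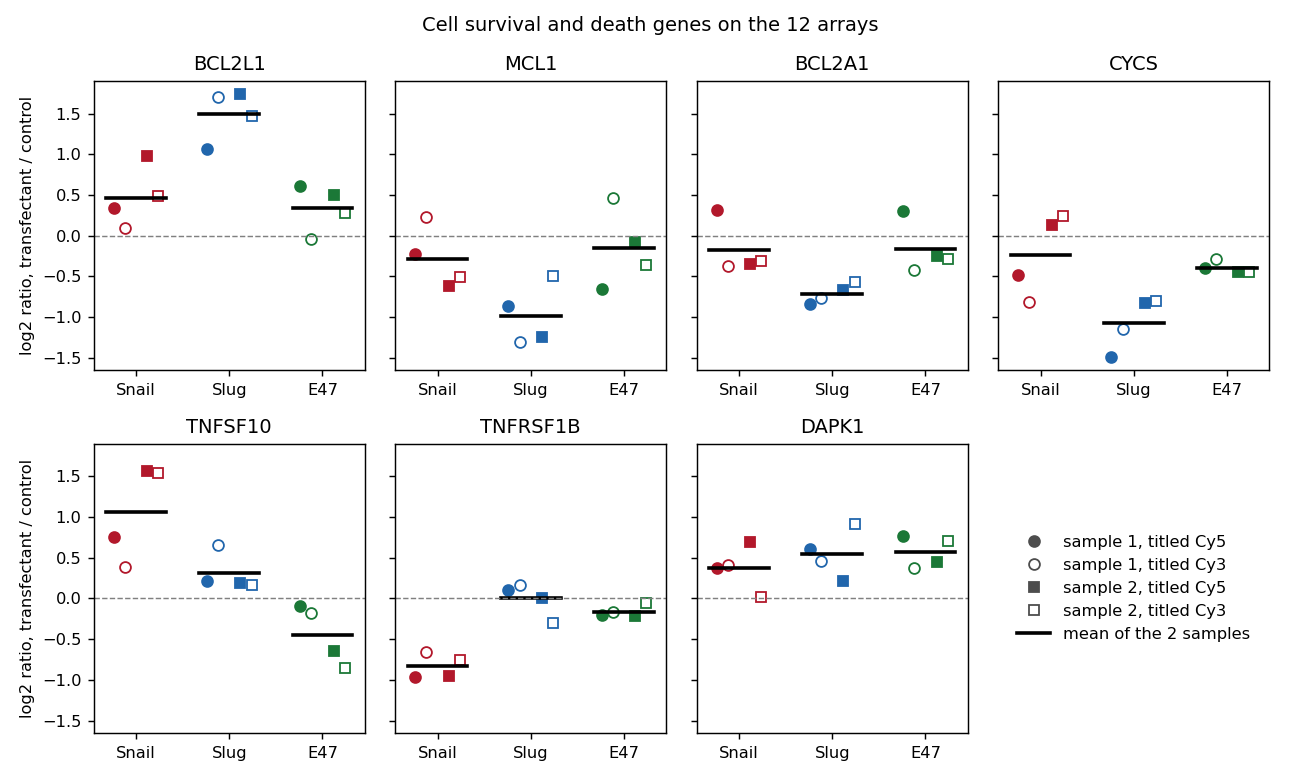
Log2 ratio of each of the 7 genes, transfectant over control, on the 4 arrays of the Snail, Slug and E47 transfectants, with the control at the dashed line. Circles are sample 1 and squares sample 2, filled for arrays titled Cy5 and open for arrays titled Cy3, and bars are means of the 2 samples. BCL2L1 stands highest in Slug, TNFSF10 in Snail, and TNFRSF1B is lowest in Snail.

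BCL2L1, which encodes the survival protein BCL-XL, was highest in the Slug transfectant. Its log2 ratio was 1.07 and 1.70 on the arrays of Slug sample 1, and 1.74 and 1.47 on those of sample 2 (array titled Cy5 first, here and below). All 4 Slug arrays lay above the control, with a mean of 1.5 ± 0.16 (SD, n = 2 samples), a 2.82-fold ratio. In Snail the arrays read 0.34 and 0.09 for sample 1, and 0.98 and 0.49 for sample 2, a mean of 0.47 ± 0.37. In E47 they read 0.61 and -0.04 for sample 1, and 0.50 and 0.28 for sample 2, a mean of 0.34 ± 0.07. The 4 Slug arrays did not overlap those of Snail or E47, while Snail and E47 overlapped across most of their range. The order of the means was Slug, Snail, E47, and only the step between Slug and the other two exceeded the spread between samples. Slug exceeded E47 by 1.16 ± 0.22 (SE from the limma fit), and Snail minus Slug was -1.02 ± 0.22. Only 1.58% of the 4053 genes tested in Slug lay farther from the control than BCL2L1. With all arrays scaled to the same spread its Slug value was 1.25.

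MCL1, a short-lived survival protein of the same family, lay on the other side of the control in Slug. The Slug arrays read -0.86 and -1.31 for sample 1, and -1.24 and -0.50 for sample 2. All 4 were below the control, with a mean of -0.98 ± 0.16, a ratio 1.97-fold under it. The Snail arrays read -0.22 and 0.23 for sample 1, and -0.62 and -0.51 for sample 2, a mean of -0.28 ± 0.40 that came from sample 2. The E47 arrays read -0.65 and 0.46 for sample 1, and -0.08 and -0.36 for sample 2, a mean of -0.15 ± 0.09. The Slug arrays overlapped those of Snail and of E47 at their upper end, and the Snail and E47 means did not differ beyond the spread between samples. On the Snail sample 1 array titled Cy3 the 2 spots of MCL1 read -0.43 and 0.88, the widest gap between its spots on any array. The E47 value of 0.46 rested on 1 spot.

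BCL2L1 and MCL1 lay on opposite sides of the control on 11 of 12 arrays. This held on 4 of 4 Slug arrays, 4 of 4 E47 arrays and 3 of 4 Snail arrays. The difference BCL2L1 minus MCL1 within an array was 1.93, 3.0, 2.98 and 1.97 in Slug, the same 4 arrays in the order used above. It averaged 2.47 ± 0.00 over the 2 Slug samples, against 0.76 ± 0.77 in Snail and 0.49 ± 0.16 in E47. No Snail or E47 array reached the lowest Slug array, the highest being 1.60 in Snail and 1.26 in E47. Since both genes were chosen by their Slug ratios, this contrast is in part fixed by the choice.

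**Figure D2:**
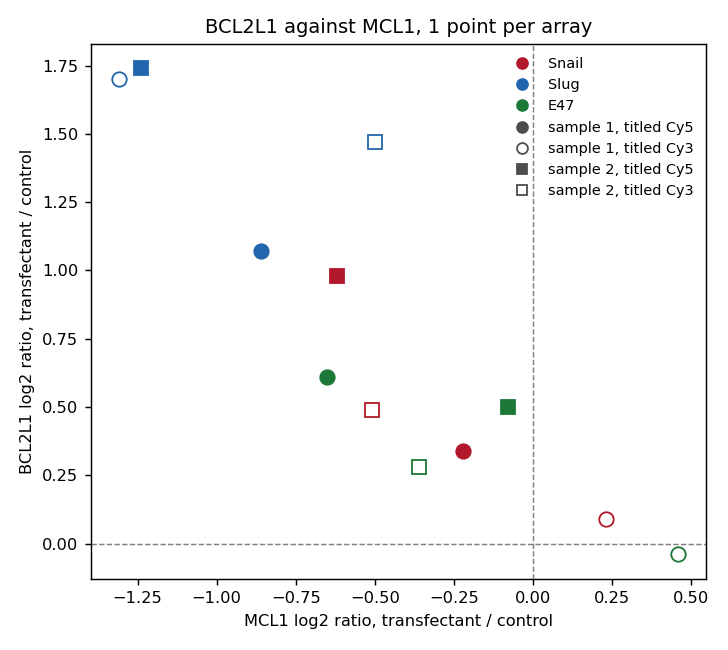
Log2 ratio of BCL2L1 (vertical) against that of MCL1 (horizontal), transfectant over control, 1 point for each of the 12 arrays, coloured by transfectant. The 4 Slug arrays lie at the upper left, with BCL2L1 at 1.07 to 1.74 and MCL1 at -1.31 to -0.50.

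BCL2A1, a survival member known as a target of NF-kappaB, was lower in Slug on every array. The Slug arrays read -0.84 and -0.77 for sample 1, and -0.67 and -0.57 for sample 2. They spanned a narrow range, with a mean of -0.71 ± 0.13, 1.64-fold under the control. The Snail arrays read 0.32 and -0.37 for sample 1, and -0.35 and -0.31 for sample 2, a mean of -0.18 ± 0.21. The E47 arrays read 0.30 and -0.42 for sample 1, and -0.25 and -0.28 for sample 2, a mean of -0.16 ± 0.15. No Slug array overlapped those of the other transfectants, which overlapped each other, and in both of them the array titled Cy5 of sample 1 was the one above the control. Of the survival members, then, 1 lay above the control and 2 below it in Slug.

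CYCS, the cytochrome c gene, was lower in Slug and was represented by 2 clones. The Slug arrays read -1.49 and -1.15 for sample 1, and -0.83 and -0.80 for sample 2, a mean of -1.07 ± 0.36 or 2.10-fold under the control. The E47 arrays lay close together at -0.39 and -0.28 for sample 1, and -0.45 and -0.44 for sample 2, a mean of -0.39 ± 0.08. The Snail samples fell on opposite sides of the control, at -0.48 and -0.81 in sample 1, and 0.13 and 0.24 in sample 2, a mean of -0.23 ± 0.59. Every Slug and E47 array was below the control. The lowest Snail array, at -0.81, reached just past the highest Slug array. Clone 1 averaged -1.47 ± 0.25 in Slug and clone 2 averaged -0.66 ± 0.47, with 1 of its 4 Slug arrays at 0.20. The clones were closer in E47, at -0.41 and -0.37.

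TNFSF10, the gene of the death ligand TRAIL, was highest in the Snail transfectant. The Snail arrays read 0.75 and 0.39 for sample 1, and 1.57 and 1.54 for sample 2. All 4 were above the control, with a mean of 1.06 ± 0.70, a 2.09-fold ratio, and sample 2 averaged 1.56 where sample 1 averaged 0.57. SNAI1 differed between the same samples in the same direction, and the part of the factor's level in the TNFSF10 ratio was not tested. The Slug arrays read 0.22 and 0.66 for sample 1, and 0.19 and 0.17 for sample 2, a mean of 0.31 ± 0.18. The E47 arrays read -0.09 and -0.18 for sample 1, and -0.65 and -0.86 for sample 2, a mean of -0.45 ± 0.44. The 4 E47 arrays lay below the control and overlapped neither Snail nor Slug, while the lower Snail sample overlapped Slug. On both arrays of Slug sample 2 the spots lay on opposite sides of the control, at 0.42 and -0.05, and at -0.32 and 0.67. The E47 sample 1 array titled Cy3 rested on 1 spot, and on the one titled Cy5 the spots read 0.00 and -0.19. Snail exceeded E47 by 1.51 ± 0.34 (SE), a difference surpassed in size by 0.691% of the 3617 genes tested in that comparison.

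TNFRSF1B, the gene of TNF receptor 2, was lower in Snail. The Snail arrays read -0.96 and -0.66 for sample 1, and -0.95 and -0.76 for sample 2. Their mean was -0.83 ± 0.04, 1.78-fold under the control, and the samples differed less than for TNFSF10. The 2 spots lay below the control on each of these arrays but differed in size. In the same order, 1 spot read -0.62, -0.34, -0.96 and -0.49, and the other -1.29, -0.97, -0.94 and -1.03. The Slug arrays read 0.11 and 0.16 for sample 1, and 0.01 and -0.30 for sample 2, a mean of 0.00 ± 0.20. The E47 arrays read -0.20 and -0.17 for sample 1, and -0.21 and -0.06 for sample 2, a mean of -0.16 ± 0.03. No Snail array overlapped those of Slug or E47, which overlapped each other. The ligand and the receptor lay on opposite sides of the control on 4 of 4 Snail arrays, and their difference, TNFSF10 minus TNFRSF1B, averaged 1.90 ± 0.73 in Snail, 0.32 ± 0.01 in Slug and -0.29 ± 0.47 in E47. TNFSF10 is not the ligand of this receptor: TRAIL binds the TNFRSF10 receptors, and TNFRSF1B binds TNF and lymphotoxin.

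DAPK1 lay above the control on all 12 arrays, and its 3 clones did not read alike. The gene's arrays read 0.37 and 0.41 for Snail sample 1, and 0.70 and 0.02 for sample 2. The Slug arrays read 0.61 and 0.46 for sample 1, and 0.22 and 0.92 for sample 2. The E47 arrays read 0.77 and 0.37 for sample 1, and 0.45 and 0.71 for sample 2. DAPK1 averaged 0.37 ± 0.02 in Snail, 0.55 ± 0.02 in Slug and 0.57 ± 0.00 in E47. The arrays of all 3 transfectants overlapped. Clones 1 and 3 differed more between samples than the gene's mean did, in opposite directions in Slug and Snail and in the same direction in E47. In Slug, clone 1 averaged 0.77 in sample 1 and 1.61 in sample 2, and clone 3 averaged 1.01 and 0.23. In Snail, clone 1 averaged 0.48 and 0.84, and clone 3 averaged 0.66 and 0.31. In E47, clone 1 averaged 0.99 and 1.34, clone 3 averaged 0.40 and 0.68, and clone 2 averaged 0.33 and -0.30. In Slug clone 2 averaged -0.16 and -0.14, and in Snail 0.01 and -0.08. The small spread of the gene's mean therefore does not show how closely the samples agreed.

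Clone 1 of DAPK1 averaged 0.66 in Snail, 1.19 in Slug and 1.16 in E47. Clone 3 averaged 0.49, 0.62 and 0.54 in the same order. Clone 2, with 1 spot, averaged -0.03, -0.15 and 0.02, with its E47 arrays on both sides of the control, at -0.49 to 0.72. The direction of the gene therefore rested on clones 1 and 3, whose duplicate spots were also far apart: the median absolute difference between spots was 0.79 for clone 1 and 0.86 for clone 3, against 0.29 over the 2093 clones with duplicate spots. Those differences exceeded 99.1% and 99.5% of such clones. For the other genes with duplicate spots the median difference ran from 0.13 for TNFRSF1B to 0.41 for TNFSF10. Single arrays lay farther apart, and the gap of TNFRSF1B reached 0.99 on the Slug sample 2 array titled Cy3. Which clone follows the dog transcript was not tested.

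**Figure D3:**
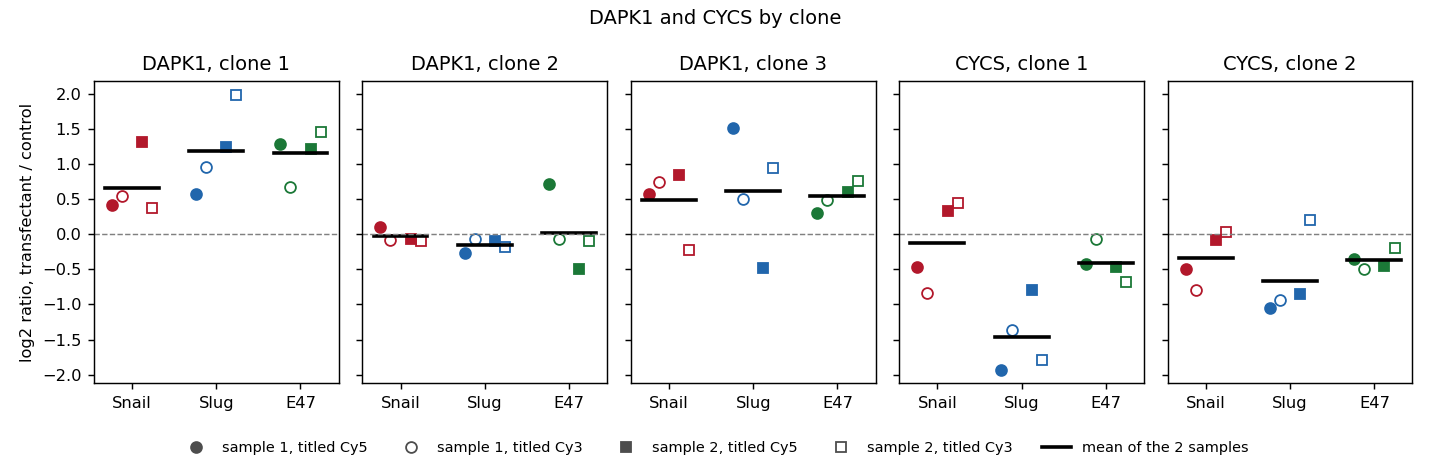
Log2 ratio, transfectant over control, of the 3 DAPK1 clones and the 2 CYCS clones on the 4 arrays of each transfectant, with the control at the dashed line. Symbols mark sample and array title as named in the legend and bars are means of the 2 samples. DAPK1 clone 2 averages -0.15 in Slug where clone 1 averages 1.19, and its E47 arrays run from -0.49 to 0.72. In Slug, CYCS clone 1 averages -1.47 against -0.66 for clone 2.

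In the limma fit over all genes, with each sample's 2 arrays averaged and Benjamini-Hochberg adjusted p under 0.05 as the call, 5 of the 7 genes were called in Slug, 2 in Snail and 1 in E47. All 7 were measured in every sample and entered each comparison. The called genes were BCL2L1, MCL1, BCL2A1, CYCS and DAPK1 in Slug, TNFSF10 and TNFRSF1B in Snail, and DAPK1 in E47. Over all genes 21.8% were called in Slug (12.2% higher and 9.62% lower), 7.22% in Snail (2.15% higher and 5.07% lower) and 5.3% in E47 (3.81% higher and 1.49% lower). These calls were what selected the genes, so nothing is read from the counts. Between transfectants, BCL2L1 and TNFRSF1B were called for Snail against Slug. None of the 7 was called by limma for Snail against E47 or Slug against E47, with 2 and 3 at an unadjusted p under 0.05. The shares called over all genes were 13.2% for Snail against Slug, 2.57% for Snail against E47 and 0.786% for Slug against E47. Nothing is read from these counts either. The ratio against the control leaves out the control's own spread, and the 3 comparisons share the control. Leaving out 1 of a transfectant's 2 samples leaves it a single sample, which is then assumed to vary like the other groups, so a call can be lost with the ratio as large as before. Without Slug sample 1 only BCL2L1 was still called in Slug, and without sample 2 DAPK1 was not. Without Snail sample 1 only TNFSF10 was called in Snail, and without sample 2 neither gene was. The E47 call of DAPK1 was lost without either E47 sample, with its mean at 0.58 without sample 1 and 0.57 without sample 2.

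The wider pathway was read from 142 other genes in 6 lists, of which 92 had a probe. In Slug, 10 of 88 tested were called (11.4%, against 21.8% of all genes), 6 higher and 4 lower. With the arrays scaled to the same spread 2 were called in Slug, 1 higher and 1 lower: TNFSF13B and PDCD10 kept their call, and BAK1, TNFRSF14, TRAF3, PAWR, BBC3, CASP8AP2, BIRC5 and FAF1 lost it. In Snail it was 5 of 83 (6.02%, against 7.22%), 1 higher and 4 lower, and in E47 4 of 89 (4.49%, against 5.3%), 1 higher and 3 lower. The median log2 ratio of the listed genes was 0.05 in Slug, -0.11 in Snail and 0.02 in E47, beside 0.02, -0.05 and 0.01 over all genes tested. The difference between these shares and those of the whole array was not tested. Leaving out 1 sample moved these counts to between 1 and 11 in Slug, 1 and 6 in Snail, and 0 and 5 in E47.

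**Figure D4:**
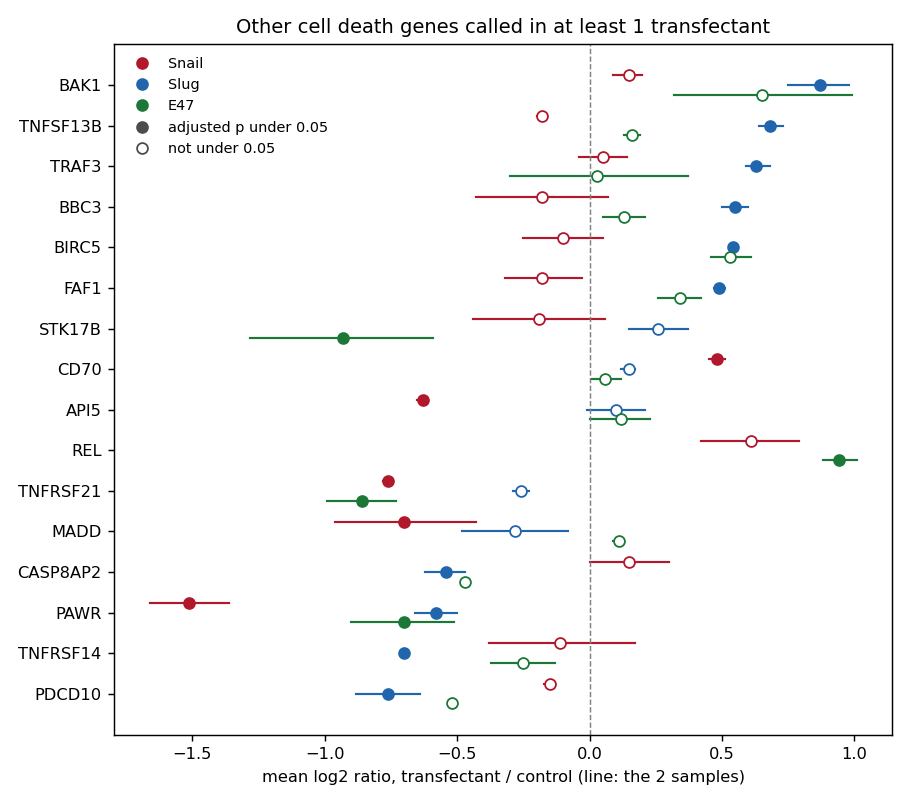
Mean log2 ratio, transfectant over control, of the 16 other cell death genes called in at least 1 transfectant, with a line between the 2 samples. Filled points have a limma adjusted p under 0.05 and open points do not. PAWR is filled in all 3 transfectants, at -1.51 in Snail, -0.58 in Slug and -0.70 in E47. REL has no Slug point because 1 Slug sample lacked a value.

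Of the BCL2 family list, 16 other genes were tested in Slug and 2 were called (12.5%, against 21.8% of all genes), both known to promote death. The list also holds BCL2-associated proteins that are not family members, such as BAG1, BAG3, BAG4 and BNIP2, and they are in these counts. BAK1, which forms pores in the mitochondrial membrane, had 0.75 and 0.98 in the Slug samples, a mean of 0.87 (limma adjusted p = 0.0113), and it read 0.15 ± 0.08 in Snail and 0.65 ± 0.47 in E47. BBC3, the p53-induced BH3-only protein PUMA, had 0.50 and 0.60 in the Slug samples, a mean of 0.55 (limma adjusted p = 0.0334). The other 14 lay between -0.31 and 0.38 in Slug. BCL2 itself, named here outside the rule for named genes, read -0.09 ± 0.11 in Snail, 0.12 ± 0.07 in Slug and 0.10 ± 0.16 in E47. BAX, a pore-forming member named on the same footing, read 0.03 ± 0.26, 0.38 ± 0.35 and 0.08 ± 0.08 in the same order. None of 16 in Snail and none of 17 in E47 was called by limma, with 2 and 3 at an unadjusted p under 0.05. The BAK1 call was lost without Slug sample 2, and the BBC3 call without either Slug sample, with ratios between 0.75 and 0.98 for BAK1 and between 0.50 and 0.60 for BBC3 in these runs.

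PAWR, the pro-death protein PAR-4, was the list gene called in all 3 transfectants. Its samples read -1.36 and -1.66 in Snail, -0.66 and -0.50 in Slug, and -0.51 and -0.90 in E47, below the control on all 12 arrays. Its limma adjusted p was 0.00229 in Snail, 0.0259 in Slug and 0.0322 in E47. The Snail call held under all 13 alternatives, and the Slug and E47 calls were lost without either sample of their own transfectant, at ratios of -0.66 to -0.50 in Slug and -0.90 to -0.51 in E47. Of its list of kinases and p53-linked death genes, PDCD10, linked to apoptosis in human cells, fell by 0.76 in Slug (limma adjusted p = 0.00516), a call lost without Slug sample 1. STK17B, a kinase related to DAPK1, fell by 0.93 in E47 (limma adjusted p = 0.0334), a call lost without E47 sample 2, which leaves sample 1 at -0.59. In this list 1 of 13 genes was called in Snail (7.69%), 2 of 14 in Slug (14.3%) and 2 of 14 in E47 (14.3%), against 7.22%, 21.8% and 5.3% of all genes.

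Of the other TNF ligands and receptors, 4 were called in at least 1 transfectant. TNFRSF21, a death domain receptor known as DR6, fell by 0.76 in Snail (limma adjusted p = 0.0114) and by 0.86 in E47 (limma adjusted p = 0.00897), and it read -0.29 and -0.23 in the Slug samples without a call. TNFSF13B, the B-cell survival ligand BAFF, rose by 0.68 in Slug (limma adjusted p = 0.00621). TNFRSF14, the receptor of LIGHT, fell by 0.70 in Slug (limma adjusted p = 0.0183). CD70, the ligand of CD27, a TNF family receptor on T cells, rose by 0.48 in Snail (limma adjusted p = 0.0466). In all, 2 of 18 genes of this list were called in Snail (11.1%), 2 of 20 in Slug (10%) and 1 of 21 in E47 (4.76%), against 7.22%, 21.8% and 5.3% of all genes. The TNFSF13B call was lost without Slug sample 1, and the TNFRSF21, TNFRSF14 and CD70 calls without either sample of their own transfectant, with ratios that moved by at most 1.18 times. The CD70 call was also lost without either E47 sample and with a replicate block.

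Among inhibitors of apoptosis, BIRC5 (survivin) rose by 0.54 in Slug (limma adjusted p = 0.0219) and API5 fell by 0.63 in Snail (limma adjusted p = 0.0253). They were the 1 gene called of 6 in each of these transfectants (16.7%, against 21.8% of all genes in Slug and 7.22% in Snail), and none of 6 was called in E47, with 2 at an unadjusted p under 0.05. Among caspases and their partners, CASP8AP2, a binding partner of caspase 8, fell by 0.54 in Slug (limma adjusted p = 0.022), 1 of 9 tested (11.1%). None of 8 was called in Snail and none of 9 in E47, with 0 and 2 at an unadjusted p under 0.05. Among adaptors and NF-kappaB genes, TRAF3 (0.63) and FAF1 (0.49) rose in Slug, REL (0.94) rose in E47 and MADD fell by 0.70 in Snail, with limma adjusted p values of 0.0323, 0.0306, 0.0155 and 0.0434. They were 2 of 23 tested in Slug (8.7%), 1 of 22 in E47 (4.55%) and 1 of 22 in Snail (4.55%). The 7 calls of these lists were each lost without either sample of their own transfectant, and the MADD call also without either E47 sample. MADD moved most in these runs, at -0.43 and -0.96 in the Snail samples, and the other 6 ratios moved by at most 1.16 times.

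Between transfectants, 13.2% of all genes were called for Snail against Slug, 2.57% for Snail against E47 and 0.786% for Slug against E47. These comparisons rest on the sign of both transfectants. In the lists, 6 of 81 other cell death genes were called between Snail and Slug, or 7.41%. PAWR was lower in Snail by 0.93 on the log2 scale (Snail minus Slug -0.93, limma adjusted p = 0.0273), and so were TNFSF13B (-0.86), API5 (-0.74), FAF1 (-0.66) and TP53BP2 (-0.64), a p53-binding protein. CASP8AP2 was the 1 gene higher in Snail (0.69). The differences of TNFSF13B, API5, FAF1, TP53BP2 and CASP8AP2 had limma adjusted p values of 0.0179, 0.0349, 0.0494, 0.0473 and 0.0444. No list gene was called for Snail against E47 (0 of 81) or Slug against E47 (0 of 85) by limma, with 14 and 8 at an unadjusted p under 0.05. With the sign of the first-named transfectant turned, the genes called over the whole array numbered 671 for Snail against Slug, 357 for Snail against E47 and 985 for Slug against E47, in place of 486, 93 and 30. In the lists they then numbered 7 of 81 (8.64%), 5 of 81 (6.17%) and 12 of 85 (14.1%), against 18.3%, 9.87% and 25.8% of all genes. Of the 6 genes above PAWR alone was called with Snail turned, at 2.09, and the differences of the other 5 were -0.51 for TNFSF13B, 0.53 for API5, -0.31 for FAF1, -0.05 for TP53BP2 and 0.39 for CASP8AP2. As oriented here, API5, CASP8AP2, FAF1 and TP53BP2 lost their call in each of the 6 runs without 1 sample, PAWR in 4 and TNFSF13B in 3.

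The genes most like each of the 7 were taken as the 2 with the highest Pearson correlation over the 12 turned arrays, among 3537 genes with a value on all of them. The 12 arrays share the control line MDCK-CMV and come in 3 transfectants, so the coefficients describe these arrays only. BCL2L1 was most like MRPL12 (r = 0.95) and ANKRD1 (0.94), MCL1 like SLC2A3 (0.90) and IL1B (0.86), and BCL2A1 like SUPT3H (0.96) and NTRK2 (0.92). CYCS was most like UFC1 (0.94) and ETV1 (0.93), and DAPK1 like ZC3H12A (0.84) and ZZZ3 (0.83). TNFSF10 was most like HDAC9 (0.92) and SNAI1 (0.88), whose Snail samples read 0.58 and 1.30 for HDAC9 and 1.04 and 2.37 for SNAI1. TNFRSF1B was most like SRSF4 (0.98) and AXIN1 (0.98), but SRSF4 averaged 1.21 in Slug where TNFRSF1B averaged 0.00. By the root mean square difference, UFC1 was the 1 gene of these 14 that was again among the 2 closest.

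Most calls of leukocyte and endothelial markers fell in Slug, which also had the most calls over all genes. Of all genes 21.8% were called in Slug, 7.22% in Snail and 5.3% in E47. The marker lists were short, and their difference from these shares was not tested. Of 5 leukocyte markers tested, CD74 was called lower in Snail, and in Slug BTK was called higher and PTPRC, CD74 and ITGAX lower. TEK and ENG, 2 of 5 endothelial markers, were called higher in Slug, and 3 epithelial markers were called lower in each transfectant, of 6 tested in Snail, 7 in Slug and 6 in E47. In each transfectant 1 of the 3 was CDH1, whose direction was set in advance by the turning of the arrays. The others were DSP and KRT7 in Snail and E47, and DSP and KRT19 in Slug. None of the 5 leukocyte and 5 endothelial markers was called in E47 by limma, with 1 of each at an unadjusted p under 0.05, and none of 4 endothelial markers in Snail, with 1. The leukocyte markers ranged from -0.84 to 0.36 in Snail, from -0.66 to 0.89 in Slug and from -0.66 to 0.40 in E47. By the labels both channels held RNA of the MDCK line, and no leukocytes or endothelial cells are named. The markers are therefore given as genes read in that line. How they relate to the ratios of the 7 genes, of which BCL2A1 and TNFRSF1B are known from leukocytes, was not tested.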

How the data were processed

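The deposited values are log2 ratios of the 2 channels of each array, as the authors' table gives them. That they are log2 was checked on the numbers: for values under -0.5, the antilog was a whole thousandth in 100% of cases, with a log2 tolerance of 6e-05. Array medians lay between -0.0634 and 0.0594. Scanner, background correction and normalisation were not given in the sources used here. Precision is limited by how many arrays there were. Per the labels, samples are numbered 1 and 2 and dyes were exchanged.

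Probes were named from the platform table: 8047 had 1 symbol, 276 several and 4733 none, and only the first entered. Spots were averaged by clone, clones by gene, and the 2 arrays by sample. limma 3.58.1 in R 4.3.3 fitted the 3 groups together, with 3 residual and 4.85 prior degrees of freedom. Each group was tested against 0 and against each other group, two-sided, with Benjamini-Hochberg adjustment over all genes tested. The fit was tested on simulated data with independent normal noise, which cannot show effects of the shared control, the dyes or disagreeing spots. Since no label states separate cultures, the p-values reflect sample-to-sample spread alone, which may be technical.

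The sign was turned on 5 arrays, namely the pairs from Slug 1 and from Snail 2 and, of E47 2, the one titled Cy5. Signs from the correlation of a transfectant's arrays, with the CDH1 probes left out, agreed on 12 of 12. This checks only the signs of a transfectant's arrays relative to each other. The sign of each whole transfectant was set by CDH1 in both cases, so its agreement was fixed in advance. The direction against the control was not tested. The members, lists and signs were chosen with earlier results of these data known. Named were all 7 genes, up to 10 other cell death genes called per comparison with the control and up to 6 per pair of transfectants, by size, the 2 genes most like each member, and CDH1, SNAI1 and TCF3. Alternatives were a replicate block, equal array spread, probes complete on all 12 arrays, single clones, 1 dye orientation, single arrays and leaving out each sample. No sequence of the clones was used here.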

Additional observations from a re-analysis of the deposited data

Results flagged for a closer look

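For the 7 genes, 21 groups of 4 arrays were compared for a value far from the others, and 2 had one, where chance gives about 1 in 20 groups. BCL2A1 in Snail had its array of sample 1 titled Cy5 at 0.32, with the other 3 between -0.37 and -0.31. These are means of 2 spots. The single spots read 0.62 and 0.02 on the flagged array and ran from -0.71 to 0.03 on the other 3. TNFSF10 in Slug had its array of sample 1 titled Cy3 at 0.66, with the other 3 between 0.17 and 0.22. Its single spots read 0.45 and 0.87 on that array and ran from -0.32 to 0.67 on the other 3. In both cases the spots of the flagged array overlapped those of the others.

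TNFSF10 lay on opposite sides of the control in Snail and E47 on all arrays of both, a difference of 1.51, and likewise in Slug and E47, a difference of 0.76. The limma fit over all genes called neither difference, and with the gene chosen for its ratios they are given as a description. The sides are those of array means. On both arrays of Slug sample 2 the 2 spots of TNFSF10 lay on opposite sides of the control.

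Between Snail and Slug, 6 other cell death genes differed by limma (Snail minus Slug): PAWR by -0.93, TNFSF13B by -0.86, API5 by -0.74, CASP8AP2 by 0.69, FAF1 by -0.66 and TP53BP2 by -0.64. API5, CASP8AP2, FAF1 and TP53BP2 lost the call in each of the 6 runs without 1 sample, PAWR in 4 and TNFSF13B in 3. CASP8AP2 and FAF1 lost it in 11 of 13 alternatives, the replicate block and equal array spread among them. With the sign of Snail turned, PAWR alone was called. PAWR lay below the control in both transfectants, and TNFSF13B, API5, FAF1 and TP53BP2 had Snail means below and Slug means above it.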

How the results depend on the processing

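The main counts were 272 genes called for Snail, 885 for Slug and 210 for E47 against the control, 486 for Snail against Slug, 93 for Snail against E47 and 30 for Slug against E47, with 5, 10 and 4 other cell death genes for Snail, Slug and E47. Leaving out 1 sample gave 34 to 345, 339 to 891, 26 to 275, 138 to 389, 3 to 137 and 8 to 27 genes in that order, and 1 to 6, 1 to 11 and 0 to 5 other cell death genes. Arrays scaled to the same spread gave 436 for Slug, 310, 184 and 15 for the pairs and 2 other cell death genes in Slug. Probes complete on all 12 arrays gave 156 for Snail against E47 and 50 for Slug against E47. Single clones gave 16 other cell death features in Slug. Arrays titled Cy5 alone gave 576 for Slug, 265 for Snail against Slug, 39 for Snail against E47 and 3 other cell death genes in Slug. Arrays titled Cy3 alone gave 56, 372 and 42 against the control, 88, 1 and 4 for the pairs and 1, 4 and 1 other cell death genes. Single arrays with a random block gave 570 for Snail and 428 for E47, 801, 365 and 177 for the pairs and 11 other cell death genes in E47. With the first-named transfectant turned, Snail against E47 gave 357 and Slug against E47 gave 985. The cause of these shifts was not tested. Deviations of same-numbered samples correlated at 0.02 for Snail and Slug, 0.23 for Snail and E47 and -0.06 for Slug and E47. Whether the numbers paired any of the samples was not settled by these values. A replicate block gave 294, 903 and 231 genes against the control and 519, 101 and 34 for the pairs. It gave 5, 10 and 5 other cell death genes, and TNFSF10 was no longer called in Snail. Of 204 alternative means of the 7 genes, 167 moved by less than the spread between samples and 36 by more, and DAPK1 in Slug turned to -0.15 with clone 2 alone. Many of the 167 were fixed in advance. The replicate block, the random block and the signs from the data left each mean as it was. Leaving out 1 of 2 samples always moves a mean by less than their SD. The count is therefore no measure of how stable the means were. None of the 25 named calls of other cell death genes changed direction, 1 held under every alternative (PAWR in Snail), and 8 Slug calls were lost with equal array spread.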
